A study of Homo sapiens with 6 samples.

Results

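Forkhead genes encode transcription factors that share a winged-helix DNA-binding domain, and 44 of them, among 20015 protein-coding genes, were examined at their promoters. They were listed by name, from FOXA1 to FOXS1, with no value as a criterion, although the family was picked with earlier results of these data known. For each gene, peaks overlapping 1500 bp on either side of any annotated transcript start were read from all 6 libraries of a sequential chromatin immunoprecipitation (reChIP-seq) experiment in NCI-H661, an established line of lung large cell carcinoma. All libraries came from parental cells with no treatment named in the labels. The conditions were K4–K119 (H3K4me3 antibody, then H2AK119ub antibody), K119–K4 (the same antibodies in the reverse order) and the control IgG–IgG (rabbit IgG in both steps), each with 2 replicates. No library combined a histone antibody with IgG in the other step, so carry-over from the first antibody cannot be told apart from joint marking here. The study asked whether H3K4me3 and H2AK119ub lie on the same chromatin fragments. The lists hold peaks and no expression, so the identity of the line was not checked against expressed markers.

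H3K4me3 marks the promoters of active or poised genes, most of them rich in CpG dinucleotides, and H2AK119ub is placed by the Polycomb repressive complex PRC1. Many forkhead genes are classical Polycomb targets that are switched on in a single lineage, among them FOXA1 and FOXA2 in lung endoderm and FOXF1 in lung mesenchyme, whereas the FOXO and FOXK genes are used in most tissues. FOXK1 and FOXK2 proteins are themselves partners of BAP1, the enzyme that removes ubiquitin from H2AK119.

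A kept peak had a log2 fold over input above 1 and an FDR below 0.05. The reChIP libraries held between 749681 and 1977663 reads in 104200 to 189491 kept peaks, of which 65.9% to 81.6% held 2 reads. The IgG–IgG libraries held 58980 and 65433 reads in 28672 and 31740 kept peaks, of which 96.1% and 95.5% held 2 reads. K4–K119 replicate 1 stood apart: a log2 fold of 1 needed 0.657 reads per input read in it, against 7.24 to 9.48 in the other reChIP libraries, and 19232 of its kept peaks held 10 or more reads, against 5142 to 8124. Kept peaks of 10 or more reads are therefore counted beside all kept peaks, and counts that rest on that library are given again under another setting. A library that lists no peak gives no read count, so no fold against IgG–IgG was formed.

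Most forkhead promoters carried kept peaks in each reChIP library, and fewer did in IgG–IgG, where all such peaks were shallow. A kept peak lay at 37 and 28 of the 44 genes in the K4–K119 replicates (78.2% and 52.3% of all protein-coding genes) and at 31 and 33 in the K119–K4 replicates (64.1% and 61.4% of all genes). In IgG–IgG it lay at 2 and 7 (10.3% and 10.7% of all genes). Kept peaks of 10 or more reads were found at 37 and 18 forkhead genes in the K4–K119 replicates (70.6% and 29.7% of all genes). In the K119–K4 replicates they were found at 21 and 14 (39.4% and 26.4% of all genes). None was found in either IgG–IgG library at a forkhead gene or at any other protein-coding gene. The IgG–IgG peaks lay at 8 forkhead genes (19.1% of all genes): FOXB1, FOXC1, FOXD2, FOXE3, FOXK1, FOXK2, FOXM1 and FOXN1. Each of these peaks held 2 reads and no input read, and FOXK2 alone had peaks in both IgG–IgG libraries (1.82% of all genes).

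**Figure D1:**
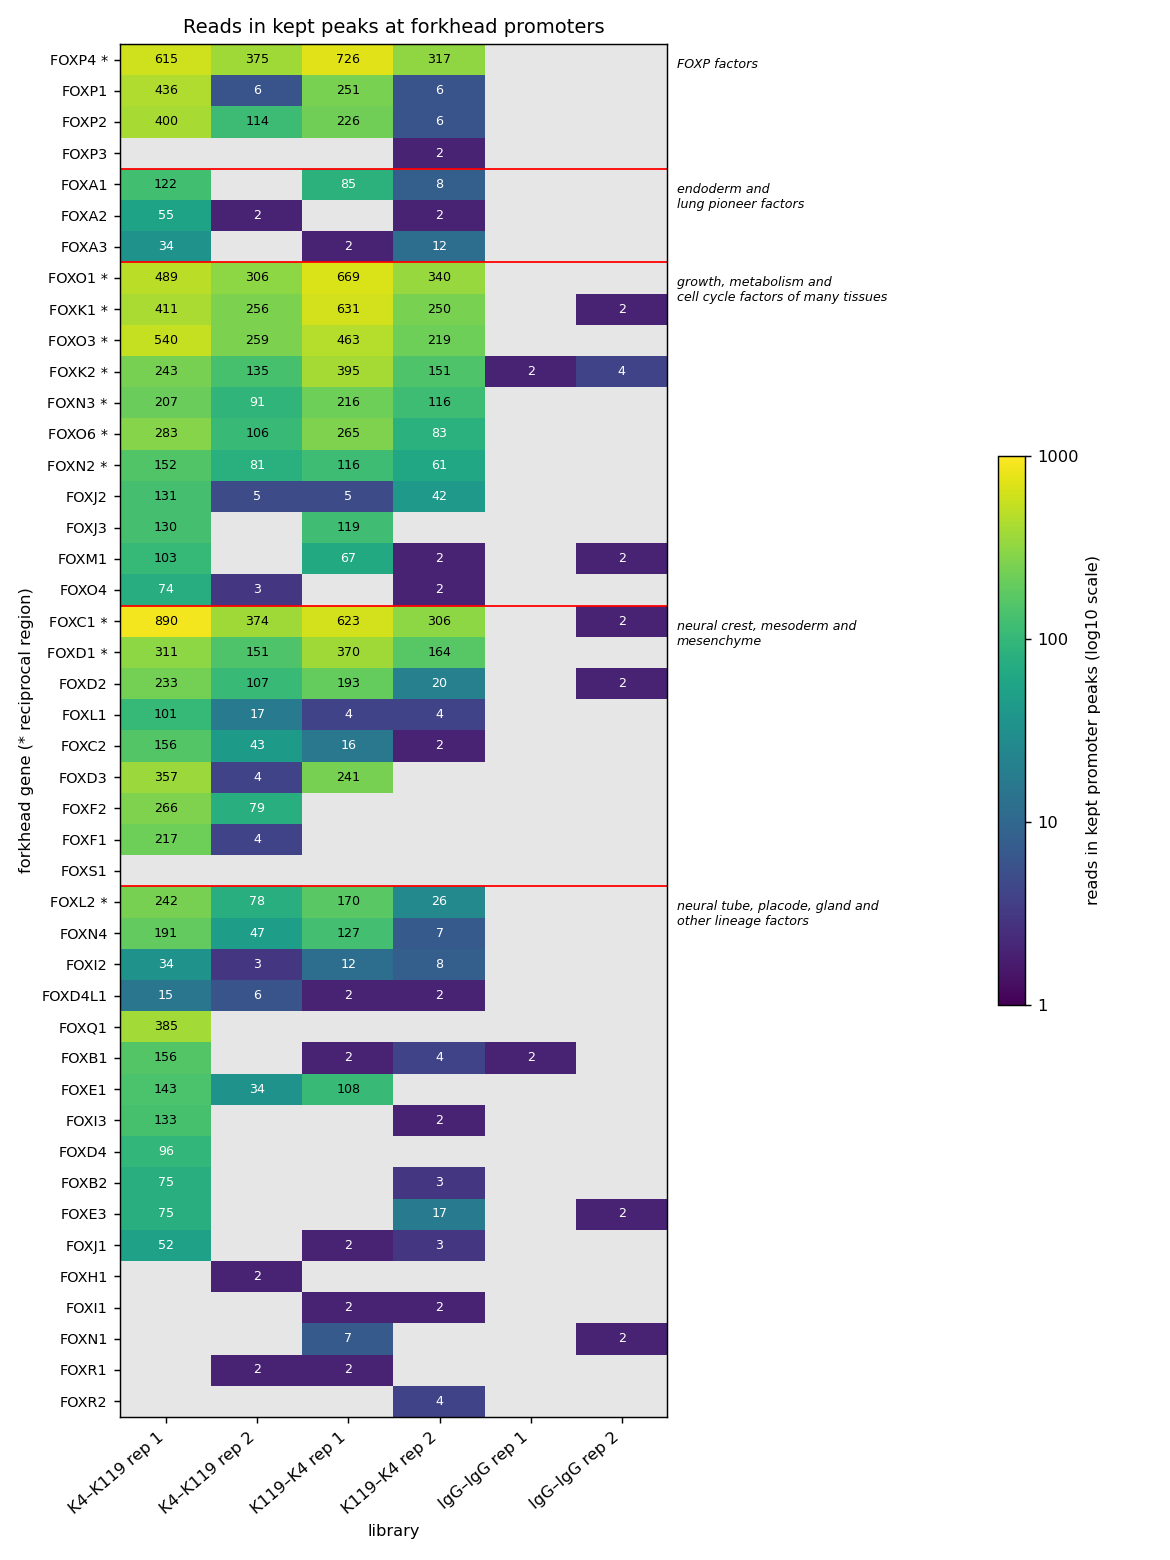
Reads in kept promoter peaks of the 44 forkhead genes (rows, in blocks by role) in the 6 libraries (columns, IgG–IgG at the right), with the number of reads printed and colored on a log10 scale; gray marks a library with no kept peak, and an asterisk a reciprocal region. The 11 genes with an asterisk had 26 to 890 reads in each reChIP library, and no forkhead gene had more than 4 reads in an IgG–IgG library.

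Replicate peaks overlapping by more than 25% of both were taken as reproducible, and reproducible peaks of both orders overlapping by the same rule as a reciprocal region. A reproducible K4–K119 peak lay at 21 forkhead genes (33.0% of all genes) and a reproducible K119–K4 peak at 16 (30.0%). A reciprocal region lay at 11, or 25% of the family against 20.9% of all genes, so the family as a whole was close to the background. The count moved with the fold threshold, to 2 genes (6.27% of all genes) at a log2 fold above 2 and to 18 (30.2%) with no filter on the fold. The 11 were FOXC1, FOXD1, FOXK1, FOXK2, FOXL2, FOXN2, FOXN3, FOXO1, FOXO3, FOXO6 and FOXP4, and every region contained the canonical start of its gene and overlapped the first exon. Without K4–K119 replicate 1 all 11 kept their region and FOXI2 gained it, 12 against 21.0% of all genes. By role, factors of growth, metabolism and the cell cycle that act in many tissues held 7 in 11 genes, and all other forkhead genes held 4 in 33: FOXC1 and FOXD1 of 9 genes of neural crest, mesoderm and mesenchyme, FOXL2 of 17 genes of other lineages, FOXP4 of 4 FOXP genes and none of the 3 FOXA genes. The roles were assigned with earlier results of these data known, so the split is a description.

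The regions at forkhead promoters were wide and deep among reciprocal regions. Their median width was 3400 bp against 2100 bp for all 4020 reciprocal regions, and 4 of the 11 (36.4%) reached 4000 bp against 6.59% of all. The 4020 include regions away from promoters, down to 100 bp wide, and widths at promoters alone were not set apart. Median reads of the 11 genes were 311 and 151 in the K4–K119 replicates, with 395 and 164 in the K119–K4 replicates. The medians of all 4180 genes with a region were 174 and 84 (K4–K119) and 162.5 and 65 (K119–K4). These widths and depths were not tested, since they describe genes already selected for a region.

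FOXO1, FOXO3, FOXO4 and FOXO6 encode the FOXO factors, which insulin signaling through AKT restrains. At FOXO1, the kept promoter peaks held 489 and 306 reads in K4–K119, against 669 and 340 in K119–K4, and IgG–IgG listed none. The region covered chr13:40663801-40668000 (hg38, minus-strand gene), and the log2 folds over input were 6.08 and 2.95 in K4–K119, against 3.82 and 2.55 in K119–K4. FOXO1 was therefore above a log2 fold of 2 in every reChIP library, as FOXK1 was and as no other of the 11 was in all 4. FOXO3 had 540 and 259 reads in K4–K119, against 463 and 219 in K119–K4 over chr6:108557101-108563100, 6000 bp that also hold the start of a long noncoding RNA (ENSG00000287044). FOXO6, a form best known from the brain, had 283 and 106 reads in K4–K119, against 265 and 83 in K119–K4 around chr1:41361201-41363600. In raw reads the orders overlapped at all 3 genes. FOXO4, the X-linked member, departed from them: its kept peaks held 74 and 3 reads in K4–K119, none was kept in K119–K4 replicate 1, and 2 reads were kept in replicate 2. Its reproducible K4–K119 peak rested on peaks of 11 and 3 reads.

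FOXK1 and FOXK2 repress or activate metabolic genes, glycolysis among them. FOXK1 had 411 and 256 reads in K4–K119, against 631 and 250 in K119–K4 over chr7:4681801-4685300. FOXK2 had 243 and 135 reads in K4–K119, against 395 and 151 in K119–K4 over chr17:82519701-82522000. The IgG–IgG peaks counted for both genes, 2 reads for FOXK1 in replicate 2 and 2 and 4 reads for FOXK2, lay near alternative starts, 60006 bp or more inside the genes, and not in the regions. FOXN2 had 152 and 81 reads in K4–K119, against 116 and 61 in K119–K4 over chr2:48314301-48316500. FOXN3, a checkpoint-related repressor, had 207 and 91 in K4–K119, against 216 and 116 in K119–K4 over chr14:89416001-89418300, which also holds the start of FOXN3-AS1. FOXN2 was the shallowest of these 4 genes in every reChIP library, and its lowest value of 61 reads was still above any IgG–IgG value in the family. Peaks carry no strand, so reads of FOXN3 and FOXN3-AS1 cannot be told apart.

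The remaining genes of this role had promoter peaks in some libraries that the fold filter kept and in others that it did not. FOXM1, which drives G2 and mitotic genes, had 103 reads in kept peaks of K4–K119 replicate 1, against 67 in replicate 1 of K119–K4. In the second replicates its main peaks held 56 reads in K4–K119, against 21 in K119–K4, at log2 folds of 0.66 and 0.95, and were not kept. FOXJ3 likewise had kept peaks in the first replicates, of 130 reads in K4–K119, and peaks in the second that were not kept, of 66 reads (log2 fold 0.74) in K4–K119 and of 60 reads (0.88) in K119–K4. FOXJ2 had 131 and 5 kept reads in K4–K119, against 5 and 42 in K119–K4, beside peaks that were not kept, of 59 reads in K4–K119 replicate 2, against 94 reads in K119–K4 replicate 1. With no filter on the fold, FOXM1, FOXJ2 and FOXJ3 gained a region, as did FOXA1, FOXN4, FOXP1 and FOXP2, so that 18 forkhead genes had one against 30.2% of all genes, and 10 of the 11 genes of this role did. The absence of a region at these 7 genes thus rested on the fold threshold and not on a missing peak.

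FOXP1, FOXP2 and FOXP4 act together in lung epithelium, and FOXP3 defines regulatory T cells. FOXP4 had 615 and 375 reads in K4–K119, against 726 and 317 in K119–K4 over chr6:41544801-41548900, which also holds the start of FOXP4-AS1. FOXP1 had 436 and 6 kept reads in K4–K119, against 251 and 6 in K119–K4, the second replicates listing 151 and 93 reads in main peaks at log2 folds of 0.94 and 0.44. FOXP2, known for its part in speech development, had 400 and 114 reads in K4–K119, against 226 and 6 in K119–K4. Its reproducible K4–K119 peak, chr7:114082601-114088200, lay at an alternative start, with its nearer end at -326615 bp from the canonical start. K119–K4 replicate 2 listed 64 reads there at a log2 fold of 0.44, so FOXP2 was called in K4–K119 alone although all 4 reChIP libraries listed a peak. FOXP3 had a kept peak in K119–K4 replicate 2 alone, of 2 reads.

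The FOXA genes encode pioneer factors that open chromatin in endoderm, lung and liver, and none had a reciprocal region. FOXA1 had 122 kept reads in K4–K119 replicate 1, against 85 and 8 in K119–K4, while K4–K119 replicate 2 listed 43 reads at a log2 fold of 0.86, and its promoter window also holds the start of TTC6. FOXA1 was thus reproducible in K119–K4 alone, as were FOXI2 and FOXR1, so that 3 forkhead genes were (7.98% of all genes). FOXA2 had 55 and 2 reads in K4–K119, against 2 reads in K119–K4 replicate 2, and its reproducible K4–K119 peak rested on a peak of 11 reads and a peak of 2. FOXA3 had 34 reads in K4–K119 replicate 1, against 2 and 12 in K119–K4. In all 3 genes K4–K119 replicate 1 was the highest library.

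Genes of neural crest, mesoderm and mesenchyme gave the widest forkhead region and several differences between libraries. FOXC1, which acts in the eye and in mesoderm, had 890 and 374 reads in K4–K119, against 623 and 306 in K119–K4, and 2 reads in IgG–IgG replicate 2. It was the highest forkhead gene in K4–K119 replicate 1, and FOXP4 was above it in the other 3 reChIP libraries. Its region, chr6:1604001-1612600, was 8600 bp wide because the peak of K4–K119 replicate 1 reached -5914 bp from the start. The promoter peaks of the other 3 reChIP libraries reached -2014 to -2414 bp. K119–K4 replicate 1 had 2 kept peaks in the region, of 710 reads together, with the promoter peak of 623 reads among them. The IgG–IgG peak lay inside the region, so that removing peaks that overlapped IgG–IgG peaks took the region of FOXC1 and of no other forkhead gene. FOXD1, a gene of kidney stroma, had 311 and 151 reads in K4–K119, against 370 and 164 in K119–K4 over chr5:73446501-73449800. FOXD2 had 233 and 107 reads in K4–K119, against 193 and 20 in K119–K4, without a region: the main peak of K119–K4 replicate 2 held 16 reads at chr1:47438101-47438600 against chr1:47436701-47439700 in replicate 1, under the overlap required. A kept promoter peak of 10 or more reads lay in all 4 reChIP libraries at 12 forkhead genes (19.7% of all genes). They were FOXD2 and the 11 genes with a region. Counting peaks that were not kept, FOXJ2, FOXJ3, FOXM1, FOXN4, FOXP1 and FOXP2 also had one in all 4. FOXD3, a neural crest specifier, had 357 and 4 kept reads in K4–K119, against 241 and none in K119–K4, with a peak of 96 reads at a log2 fold of 0.90 in K4–K119 replicate 2.

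FOXC1 is the last gene of a cluster on chromosome 6 that starts with FOXQ1 and FOXF2, and the neighbors differed from it. FOXF2, a factor of gut and craniofacial mesenchyme, had 266 and 79 reads in K4–K119 and no listed promoter peak in either K119–K4 library. Its peaks spanned chr6:1387901-1391500 and chr6:1388401-1391300, and the second passed the fold threshold narrowly, at 1.00. FOXQ1, a factor of epithelial plasticity, had 385 kept reads in K4–K119 replicate 1 and a peak of 105 reads in replicate 2 that was not kept, at a log2 fold of 0.56, and again no listed peak in K119–K4. A list without a peak does not show that no read was there. Within 1500 bp of the canonical start, FOXC1 held 339 CpG dinucleotides, FOXQ1 289 and FOXF2 282, all far above the median of 115 over protein-coding genes. The promoters, 250 bases before to 50 after the RefSeq start on the plus strand (GRCh38.p14; chr6:1609665-1609964, chr6:1311848-1312147 and chr6:1389326-1389625), are shown because these CpG-rich neighbors differed in their peaks, with capitals marking CpG:
FOXC1: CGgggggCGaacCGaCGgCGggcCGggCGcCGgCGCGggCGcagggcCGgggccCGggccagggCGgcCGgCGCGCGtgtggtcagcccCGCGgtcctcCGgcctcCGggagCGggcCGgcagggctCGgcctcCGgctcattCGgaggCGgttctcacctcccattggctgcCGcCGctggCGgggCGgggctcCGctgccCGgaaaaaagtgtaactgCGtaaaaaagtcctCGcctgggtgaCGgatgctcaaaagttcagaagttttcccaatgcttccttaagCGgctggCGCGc
FOXQ1: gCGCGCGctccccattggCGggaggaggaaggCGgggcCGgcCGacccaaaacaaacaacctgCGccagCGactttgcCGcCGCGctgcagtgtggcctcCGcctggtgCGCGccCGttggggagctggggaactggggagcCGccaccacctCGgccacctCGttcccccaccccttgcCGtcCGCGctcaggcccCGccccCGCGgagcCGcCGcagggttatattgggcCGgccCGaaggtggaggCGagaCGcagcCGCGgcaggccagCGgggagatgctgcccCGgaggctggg
FOXF2: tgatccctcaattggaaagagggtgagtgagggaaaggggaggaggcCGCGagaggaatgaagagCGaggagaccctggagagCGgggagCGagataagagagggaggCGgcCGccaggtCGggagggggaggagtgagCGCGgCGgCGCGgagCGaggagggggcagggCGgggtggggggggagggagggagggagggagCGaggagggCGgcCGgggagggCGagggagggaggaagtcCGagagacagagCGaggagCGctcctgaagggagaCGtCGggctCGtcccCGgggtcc
All 4 reChIP libraries covered the FOXC1 window over its whole 300 bases with kept peaks, K4–K119 alone covered the FOXF2 window and K4–K119 replicate 1 alone covered that of FOXQ1.

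**Figure D2:**
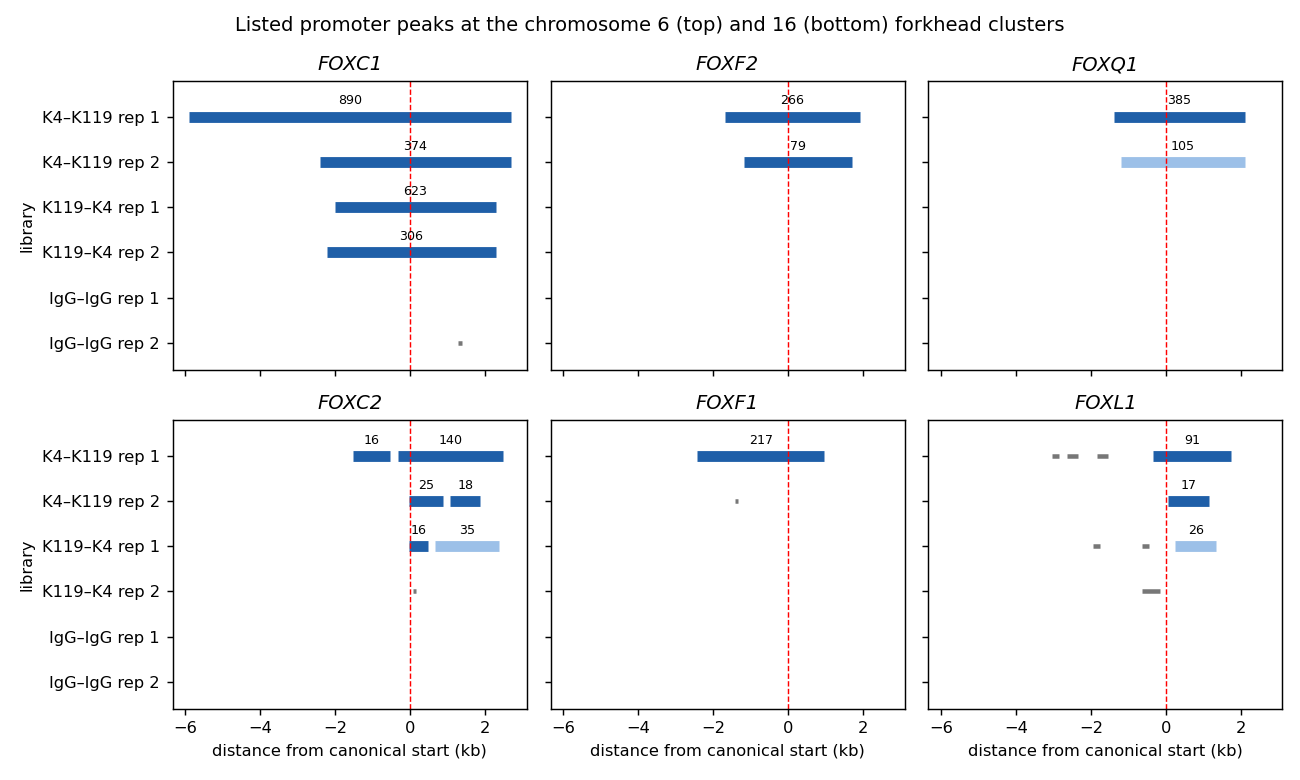
Listed promoter peaks of FOXC1, FOXF2 and FOXQ1 (chromosome 6, top) and FOXC2, FOXF1 and FOXL1 (chromosome 16, bottom) in each library, by distance from the canonical start in kb. Thick dark bars are kept peaks of 10 or more reads, with reads above, thick light bars such peaks that were not kept, and thin gray bars peaks under 10 reads. FOXC1 had wide peaks in all 4 reChIP libraries, while FOXF2, FOXQ1 and FOXF1 had none of 10 or more reads in K119–K4.

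The cluster on chromosome 16 also leaned to K4–K119. FOXF1, needed for lung vessels and mesenchyme, had 217 and 4 reads in K4–K119 and no listed promoter peak in K119–K4. FOXC2, needed for lymphatic vessels, had 156 and 43 kept reads in K4–K119, against 16 and 2 in K119–K4, where replicate 1 also listed a peak of 35 reads at a log2 fold of 0.56. FOXC2-AS1 starts in the same window. FOXL1, of gut mesenchyme, had 101 and 17 kept reads in K4–K119, against 4 and 4 in K119–K4, with a peak of 26 reads at 0.87 in replicate 1. In kept reads, both K119–K4 libraries were below both K4–K119 libraries at FOXC2 and FOXL1. Over all listed peaks the orders overlapped, with 43 reads in K4–K119 replicate 2, against 51 in K119–K4 replicate 1 at FOXC2, and 17 in K4–K119 replicate 2, against 30 in K119–K4 replicate 1 at FOXL1. FOXL1 had reproducible peaks in both orders, but the K119–K4 peak, of 2 and 4 reads, began at -648 bp from the start and overlapped the K4–K119 peak by less than the rule required. A reproducible K4–K119 peak with no reproducible K119–K4 peak lay at 8 forkhead genes (11.0% of all genes): FOXA2, FOXC2, FOXD2, FOXD4L1, FOXE1, FOXF2, FOXO4 and FOXP2. A kept promoter peak of 10 or more reads lay in both K4–K119 libraries and in neither K119–K4 library at FOXF2 and FOXL1 (3.04% of all genes). At FOXL1 this rested on the fold filter, since the 26 reads listed in K119–K4 replicate 1 were not kept. The reverse was found at no forkhead gene (0.005% of all genes). FOXS1 was the only forkhead gene with no kept promoter peak in any library.

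Among the genes of other lineages FOXL2, a factor of ovarian granulosa cells, was the only gene with a region. It had 242 and 78 reads in K4–K119, against 170 and 26 in K119–K4 over chr3:138944701-138948100, where FOXL2NB starts as well. FOXE1, a thyroid factor, had 143 and 34 reads in K4–K119, against 108 and no kept reads in K119–K4. FOXN4, a retinal factor, had 191 and 47 reads in K4–K119, against 127 and 7 in K119–K4. Its reproducible K119–K4 peaks, of 2 or 3 reads, lay 17284 bp or more inside the gene at other starts, and the promoter peak of K119–K4 replicate 2, of 28 reads at a log2 fold of 0.95, was not kept. FOXI2 was reproducible in K119–K4 alone, from peaks of 2 to 5 reads, with 34 and 3 reads in K4–K119, against 12 and 8 in K119–K4. FOXR1 was also called in K119–K4 alone, from 2 reads in each replicate, and FOXD4L1 in K4–K119 alone, from peaks of 10 and 4 reads. The 2 reads of FOXR1 are as many as its relatives had in IgG–IgG peaks.

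Only K4–K119 replicate 1 had a kept promoter peak of 10 or more reads at 12 forkhead genes (26.6% of all genes). They were FOXA2, FOXA3, FOXB1, FOXB2, FOXD4, FOXD4L1, FOXF1, FOXI2, FOXI3, FOXJ1, FOXO4 and FOXQ1. Their reads in K4–K119 replicate 1 ranged between 15 at FOXD4L1 and 385 at FOXQ1. FOXB1, a neural tube factor, had 156, FOXI3, a placode factor, 133, and FOXJ1, the factor of multiciliated cells, 52. Peaks of 10 or more reads that were not kept held 105 reads at FOXQ1 and 25 at FOXO4 in K4–K119 replicate 2. In K119–K4 replicate 1 such peaks held 63 reads at FOXI3 and 16 at FOXA3. K4–K119 replicate 1 was then held to the reads per input read that K4–K119 replicate 2 needed. At that log2 fold, 4.59 in the units of replicate 1, 9 of the 12 still had a peak of 10 or more reads. FOXA3, FOXD4 and FOXI2 did not. Of the 5318 genes of this kind in all, 2210 did. At FOXD4L1 and FOXO4 the remaining peak held 10 and 11 reads and no input read. The main FOXO4 peak, of 63 reads at a log2 fold of 4.583, did not pass. This setting was chosen after seeing the data. FOXD4 and FOXD4L1 are near copies, 97.9% identical over 2196 aligned letters of their canonical transcripts, and how reads were shared between such copies is not given in the sources used here, so their values are uncertain. FOXE3, of the lens, had 75 kept reads in K4–K119 replicate 1, against 17 in K119–K4 replicate 2. K119–K4 replicate 1 listed a FOXE3 peak of 56 reads that was not kept, at a log2 fold of 0.98. No promoter peak of 10 or more reads was kept in any reChIP library at FOXH1, FOXI1, FOXN1, FOXP3, FOXR1, FOXR2 and FOXS1, whose kept reads did not exceed 7.

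The order of antibodies was compared on the reads of kept promoter peaks for the 20 forkhead genes with such a peak in all 4 reChIP libraries (34.3% of all genes, 6866 genes tested together). edgeR's quasi-likelihood test called no gene at an adjusted p below 0.05 (0 of 6866, 0% called in either direction), with 447 genes and 3 forkhead genes at an unadjusted p below 0.05. DESeq2 called 44 genes, 40 higher and 4 lower in K4–K119, and no forkhead gene. The log2 difference, K4–K119 over K119–K4, was above 0 at 12 forkhead genes and below 0 at 8, with a median of 0.04 against 0.02 over all genes tested. The 3 genes were FOXC2, at 3.15 (SE 0.91), FOXL1, at 3.03 (SE 1.04), and FOXK2, at -0.80 (SE 0.30), each with an edgeR adjusted p of 0.689. Each order had n = 2 replicates, which the study's methods call independent, and errors were wide. The counts also leave out peaks under the fold threshold, as at FOXP1 (SE 1.67). What widened the errors was not tested.

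The 2 largest differences depended on which peaks were counted. Scaled by library size (CPM, counts per total reads in the tested peaks, with TMM factors), FOXC2 had 118.9 and 84.1 in K4–K119, against 16.8 and 4.84 in K119–K4, and FOXL1 had 77.0 and 33.2 in K4–K119, against 4.2 and 9.69 in K119–K4. The orders did not overlap at either gene. With no filter on the fold the log2 differences were 1.76 for FOXC2 and 1.44 for FOXL1, and per kb of peak they were 0.12 and 0.99. FOXK2 had 185 and 264 CPM in K4–K119, against 415 and 366 in K119–K4, again without overlap. In CPM the orders also did not overlap at FOXO1, FOXK1, FOXN3, FOXD1 and FOXP4, which were lower in K4–K119. Nor did they at FOXD4L1, which was higher in K4–K119. FOXK2, FOXO1, FOXK1, FOXN3, FOXD1 and FOXP4 were below 0 in edgeR's fit and under every alternative tried, with adjusted p-values that did not pass. FOXC2 (log2 difference 0.12 to 4.34 over the alternatives), FOXL1 (0.99 to 3.77), FOXD4L1 (0.31 to 2.46) and FOXP2 (0.24 to 4.17) were above 0 under every alternative tried, and the other 10 changed sign under at least 1. FOXP2 was at 1.04 (SE 1.09), and leaving out K119–K4 replicate 1 raised it to 4.17 with an edgeR adjusted p of 0.028, the only call of a forkhead gene in any fit. The remaining K119–K4 library held 6 kept reads at FOXP2, beside a peak of 64 reads that the fold filter did not keep. With no filter on the fold the log2 difference of FOXP2 was 0.39. Without K119–K4 replicate 1, where that lone library is assumed to vary as the K4–K119 pair did, 128 genes were called in all.

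**Figure D3:**
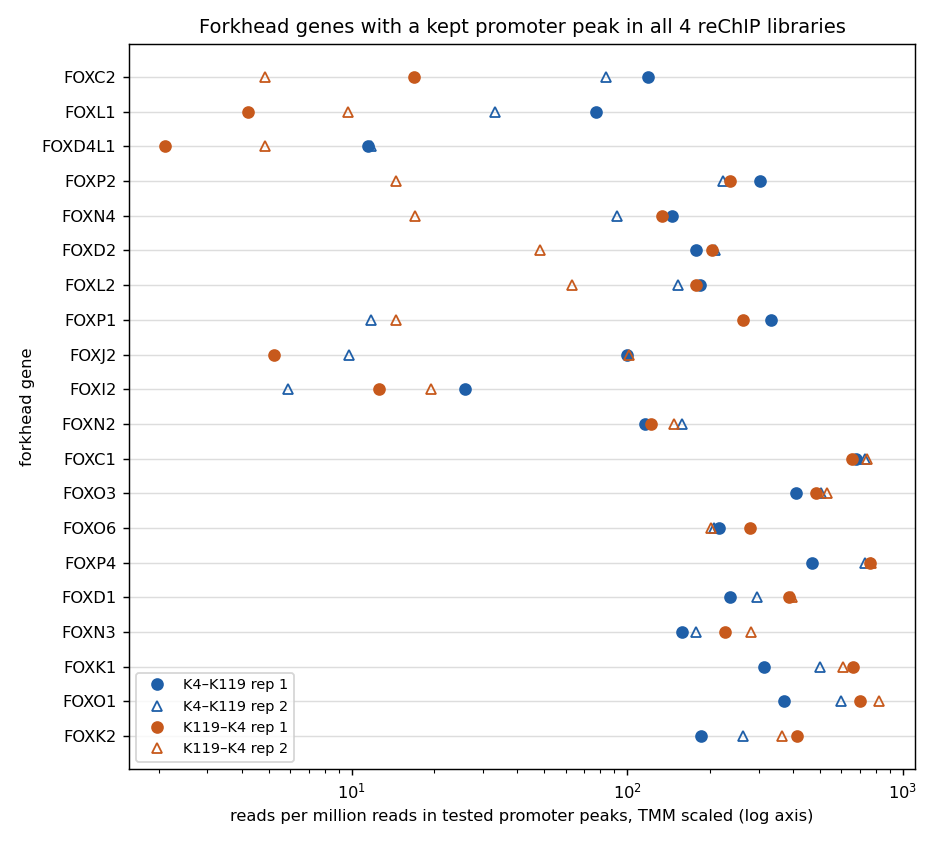
CPM over the tested promoter peaks, scaled by TMM factors (log axis), for the 20 forkhead genes with a kept peak in all 4 reChIP libraries, ordered by the log2 difference between the orders, FOXC2 at the top and FOXK2 at the bottom. Blue is K4–K119, orange K119–K4, circles replicate 1 and triangles replicate 2. The points of FOXC1, FOXO3 and FOXN2 lie close together, whereas replicates of FOXP1 and FOXJ2 lie far apart within both orders. At both genes the fold filter had dropped the main peak of K4–K119 replicate 2. In K119–K4 it had dropped that of replicate 2 at FOXP1 and of replicate 1 at FOXJ2.

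Forkhead promoters were CpG-rich, and their median CpG number was lowest at genes with no kept peak of 10 or more reads. The median number of CpG dinucleotides within 1500 bp of the canonical start was 199.5 over the 44 genes (range 20 to 339), against 115 over all protein-coding genes. It was 235 (168 to 339) at the 11 genes with a region, against 177 (20 to 327) at the 33 without. The 7 genes with no kept promoter peak of 10 or more reads in a reChIP library had a median of 71 (20 to 120). The 12 genes with kept peaks of that depth in all 4 had a median of 249 (168 to 339). Between them, genes with peaks in 1, 2 and 3 libraries had medians of 207, 195 and 220. FOXP2, at 24, is counted at its canonical start and not at the alternative start where its peak lay.

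Many CpG-rich forkhead genes had no region. There were 22 forkhead genes with 200 CpG dinucleotides or more. All had a kept promoter peak of 10 or more reads in K4–K119 replicate 1 (98.1% of all such genes). Of these 22, 10 had such a peak in all 4 reChIP libraries (57.5%) and 9 had a region (57.7%). Of the 10 genes from 150 up to 200, a region lay at 2, FOXK1 and FOXN2 (39.4% of all such genes). No region lay at the 12 forkhead genes below 150, where the shares of all genes were 18.6% from 100 upward, 5.81% from 50 up to 100 and 1.85% below 50. Whether the forkhead counts differ from these shares was not tested.

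Promoter sequences were found in RefSeq for 34 of the 44 genes, in 45 entries of 300 bases with a median of 27 CpG, against 14 over all 35116 entries. Those of FOXK1 and FOXO1, whose regions were kept under every alternative tried, and of FOXR2, among the forkhead genes with the fewest CpG, show the range (FOXK1 at chr7:4682045-4682344, plus strand, 55 CpG; FOXO1 at chr13:40666592-40666891, minus strand, 33 CpG; FOXR2 at chrX:55623150-55623449, plus strand, 1 CpG; GRCh38.p14, capitals marking CpG):
FOXK1: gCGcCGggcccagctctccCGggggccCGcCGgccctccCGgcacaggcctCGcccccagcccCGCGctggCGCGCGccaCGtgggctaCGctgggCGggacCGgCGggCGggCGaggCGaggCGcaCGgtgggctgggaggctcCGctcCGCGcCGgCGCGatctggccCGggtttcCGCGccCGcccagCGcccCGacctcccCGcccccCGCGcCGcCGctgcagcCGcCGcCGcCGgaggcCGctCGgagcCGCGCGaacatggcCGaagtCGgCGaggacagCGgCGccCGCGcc
FOXO1: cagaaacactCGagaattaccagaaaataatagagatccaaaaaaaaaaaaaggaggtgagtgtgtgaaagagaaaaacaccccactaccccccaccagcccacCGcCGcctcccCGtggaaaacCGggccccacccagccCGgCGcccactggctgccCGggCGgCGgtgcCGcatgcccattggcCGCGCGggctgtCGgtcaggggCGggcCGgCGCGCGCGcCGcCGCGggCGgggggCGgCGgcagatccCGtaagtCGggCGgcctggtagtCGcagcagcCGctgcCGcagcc
FOXR2: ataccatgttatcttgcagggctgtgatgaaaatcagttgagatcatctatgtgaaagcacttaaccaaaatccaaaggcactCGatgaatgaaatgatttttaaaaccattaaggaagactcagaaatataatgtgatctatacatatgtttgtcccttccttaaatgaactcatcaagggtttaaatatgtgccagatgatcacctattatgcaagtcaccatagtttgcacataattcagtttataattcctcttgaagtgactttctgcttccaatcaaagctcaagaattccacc
The forkhead motif TGTTTAC, searched on both strands (GTAAACA on the other), was in 2 of the 45 entries, of FOXO4 and FOXP1, and in 3.42% of all entries. FOXR2 had a kept promoter peak in K119–K4 replicate 2 alone, of 4 reads, outside the printed window.

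Genes that act with forkhead factors were read from lists chosen with earlier results of these data known, and their counts are set beside the 20.9% of all genes with a region. Of 18 genes listed as signaling upstream of the FOXO factors, 9 (50.0%) had a region, with genes of insulin and AKT signaling among them. The deepest by its lowest library was IRS1, the insulin receptor substrate, with 680 and 546 reads in K4–K119, 686 and 470 in K119–K4 and 2 in IgG–IgG replicate 2. The receptor genes IGF1R and INSR had regions too, IGF1R with 370 and 190 reads in K4–K119, against 462 and 194 in K119–K4, and INSR with 282 and 150 in K4–K119, against 436 and 124 in K119–K4. AKT1, the kinase that phosphorylates FOXO proteins, had 371 and 182 reads in K4–K119, 447 and 168 in K119–K4 and 2 and 2 in IgG–IgG. Of 21 FOXO target genes, 6 had a region (28.6%), led by KLF2, an endothelial regulator, with 442 and 218 reads in K4–K119, against 600 and 246 in K119–K4. BNIP3, a mitophagy receptor, GADD45A, a stress gene, and CDKN1B, the cell cycle inhibitor p27, were among them.

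The other lists held a region at between 6.67% and 26.7% of their genes. Of 15 genes of FOXH1 and Nodal signaling, 4 had a region: the signal transducer SMAD3 (444 and 221 reads in K4–K119, 496 and 182 in K119–K4 and 4 in IgG–IgG replicate 2), the receptor ACVR2B, the ligand GDF1 and the signal transducer SMAD2. FOXH1 itself, the partner of SMAD2 in this pathway, had a kept promoter peak in K4–K119 replicate 2 alone, of 2 reads. Of 20 FOXM1 targets 4 had a region, CCNF, CDC25B, CDC20 and TOP2A, all genes of the G2 and mitotic phases. Of 18 cilia genes of the FOXJ1 program 2 did, the dynein gene DNAI1 and the regulator RFX2, of 15 lung epithelial genes bound by FOXA factors 1 did, the surfactant lipid transporter ABCA3, and of 9 genes of the FOXK and BAP1 complex 1 did, ASXL2, with 105 and 56 reads in K4–K119, against 86 and 68 in K119–K4. No test was run over these lists.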

How the data were processed

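The 6 reChIP libraries of parental NCI-H661 cells, from single-crosslinked chromatin, were grouped by the antibody targets in the labels. According to the submitters' processing notes, the authors used Trim Galore 0.6.6, BWA 0.7.13, SAMtools 1.9 and Picard 2.6.0. Their methods describe EPIC2 peaks per replicate against input, in 100 bp bins on hg38. Each peak comes with a deposited read count and input read count, both whole and unscaled. The deposited p-value, FDR, log2 fold over scaled input and score of a peak are the authors' caller output. Reads outside peaks are not listed, so depth is unknown and gene sums grow with the length called.

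Kept peaks (log2 fold above 1, FDR below 0.05, chromosomes 1 to 22, X and Y) were overlapped at more than 25% of both. The ENCODE blacklist was not used here. Promoters, of 1500 bp each way, came from all starts of 20015 GENCODE v44 protein-coding genes, leaving out 18 pseudoautosomal copies on Y. Kept promoter reads, summed per gene, were compared between orders with edgeR 4.0.16 (quasi-likelihood, TMM, Benjamini-Hochberg over 6866 genes) in R 4.3.3, with DESeq2 1.42.0 as an alternative. Overlaps were computed with pandas 2.3.3 in Python 3.11.15. Both steps were tested on simulated data. The members, role groups and related lists were chosen with earlier results of these data known, and 1 gene of a related list is not reported here. Full values were given for genes with a reciprocal region, with a reproducible peak of 1 order alone, or called by the order test. From each related list up to 4 genes with a region were named, by their lowest reads over the 4 reChIP libraries. Alternatives changed the fold, FDR, read, input, overlap and promoter rules, the normalization and the libraries used.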

Additional observations from a re-analysis of the deposited data

How the results depend on the processing

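All 11 forkhead genes with a reciprocal region kept it under 15 of 18 alternatives. The exceptions were a log2 fold above 2, which left 2 (FOXK1 and FOXO1, 6.27% of all genes), an overlap over 50%, which lost FOXO3, and removal of peaks overlapping IgG–IgG peaks, which lost FOXC1. With no filter on the fold 18 genes had a region (30.2% of all genes), and without 1 reChIP library 12 to 16 (21.0% to 27.2%). A log2 fold above 2 left 6 genes with a reproducible K4–K119 peak (13.7% of all genes) and 9 with peaks in all 4 libraries (20.2%). This last count was 12 with peaks of at least 10 reads (19.7%) and 12 with peaks of at least 1 input read (19.0%). Where 1 library stood for its order, K4–K119 gave 28 (without replicate 1, 52.3% of all genes) to 37 (without replicate 2, 78.2%) and K119–K4 gave 31 (without replicate 2, 64.1%) to 33 (without replicate 1, 61.4%). No forkhead gene kept an IgG–IgG peak (0 genes) at 10 reads (0% of all genes), at 1 input read (0.6%) or with 500 bp promoters (9.62%), and 2 to 7 did without 1 IgG–IgG library (10.3% and 10.7%). The cause of these changes was not tested.

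The order test gave 44 calls with DESeq2, 1 among genes with a peak in any reChIP library and 0 to 128 without 1 library, 128 without K119–K4 replicate 1, FOXP2 among them. In the labels, same-numbered replicates share only a number, and which libraries shared a chromatin preparation is not stated. The correlation of their deviations was 0.039. With the replicate block the order test called 0 genes, with 355 at an unadjusted p below 0.05, the count of regions stayed at 11, and FOXI2 turned to -0.205 (log2, K4–K119 over K119–K4). Other log2 differences that did not pass changed sign. With at least 10 reads in every library FOXO6 was at 0.021 and FOXO3 at 0.036, and with a peak in any library FOXN2 was at -0.006, FOXC1 at -0.018 and FOXI2 at -0.019. Per kb of peak, where the median over all genes was -0.391, FOXD2 was at -0.062, FOXN2 at -0.487, FOXP1 at -0.708, FOXC1 at -0.516, FOXI2 at -0.77 and FOXJ2 at -1.09. Without 1 library, FOXP1 ranged over -3.567 to 3.566, FOXJ2 over -2.408 to 3.488, FOXI2 over -1.4 to 0.718, FOXO6 over -0.325 to 0.074, FOXN2 over -0.217 to 0.227, FOXC1 over -0.073 to 0.172, FOXN4 over -0.079 to 2.799, FOXD2 over -0.007 to 1.992 and FOXL2 over -0.006 to 1.419.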

Other observations

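Outside promoters, the last part of FOXO6 held a second reciprocal region, chr1:41380101-41383600 (3500 bp, hg38), with 208 and 114 reads in K4–K119, 159 and 55 in K119–K4 and no listed peak in IgG–IgG. It was the only reciprocal region found in the body of a forkhead gene away from a promoter. The end of FOXF2 held a reproducible K4–K119 peak at chr6:1392501-1394400, with 67 and 9 reads in K4–K119 and 10 and none in K119–K4. A K4–K119 peak at chr6:1613601-1615100 overlapped the end of FOXC1, at chr6:1613897, and lay mostly beyond it. That peak had 28 and 49 reads in K4–K119 and 61 in K119–K4 replicate 2 alone. FOXA1 held a K4–K119 peak at chr14:37591301-37592200, with 31 and 11 reads in K4–K119 and none in K119–K4.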
